A study of Homo sapiens with 15 samples.

Results

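The promoters of ORC4, IRF3 and ONECUT2 were followed CpG by CpG in whole-genome bisulfite sequencing (WGBS) of HCT116 cells, a human colorectal carcinoma line. They are 3 of the 20033 protein-coding genes of the annotation, and 3 of the 17 among 18476 testable promoters that were called as losing more DNA methylation in shUHRF1 than in shDNMT1 cells. The members were thus chosen by the Knockdown minus Baseline values of the promoter itself, and these values are given below as a description, with no test. A promoter was taken as 1 kb upstream to 100 bp downstream of the annotated 5′ end, and the 2 kb on either side are called its flanks. Methylation (mC) is the percent of reads at a CpG, or summed over the CpGs of a region, in which the cytosine was methylated. The reads of a region or library are sums over its CpGs, so a read that covers several CpGs counts at each.

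The libraries came from HCT116 cells that carry a doxycycline-inducible shRNA. Clones Cl.3, Cl.6 and Cl.9, each expanded from a single clone, express an shRNA against UHRF1, and the populations R1 and R2 are bulk, non-clonal cultures with an shRNA against DNMT1. Each of the 5 populations was sequenced once at Baseline (14 days with no doxycycline), once at Knockdown (14 days with 10 ng/mL doxycycline) and once at Recovery (14 days with doxycycline and then 14 days with none, collected on day 28), which gave 15 libraries. The target of the shRNA, clonal against bulk culture and the count table of origin go together in this design, so their parts in any difference between shUHRF1 and shDNMT1 cells cannot be told apart. Among the clones, Cl.3 and Cl.6 share a count table and Cl.9 has its own. Nothing in the labels places the libraries of 1 group in separate batches of culture. The p-values of the fits with the population as a block thus measure how the changes between stages vary between these populations.

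Each library held 317670080 to 593644411 reads at CpGs, summed over the CpGs. Over all CpGs, mC at Knockdown was 62.1% in Cl.3, 57.1% in Cl.6 and 42.5% in Cl.9, against 40.1% in R1 and 39.2% in R2. At Recovery it was 67.6%, 66.2% and 52.9% in the clones, in the same order, and 72.5% and 72.3% in the bulk populations. Cl.9 stood apart from the other clones: over promoters the mean chi-square (1 degree of freedom) at Knockdown was 24.1 against Cl.3 and 16.9 against Cl.6, and 5.14 between Cl.3 and Cl.6. Cl.9 also had the most reads of the clones at every stage and came from its own count table. The parts of depth and of count table in these values were not tested. The clones thus kept more mC than the bulk populations genome-wide at Knockdown. The promoters of ORC4 and IRF3 were then lower in every clone than in both bulk populations, as at 0.574% of all promoters, and that of ONECUT2 overlapped. The members were chosen by values that include Knockdown, so nothing is read from this order.

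DNA methylation is copied after replication by DNMT1, the maintenance methyltransferase, which is brought to hemimethylated CpGs with the help of UHRF1, a protein that binds such CpGs and ubiquitylates histone H3. Most active promoters sit in CpG-rich, unmethylated stretches, and the shores where such a stretch meets methylated DNA hold CpGs of intermediate mC. ORC4 encodes a subunit of the origin recognition complex, which marks replication origins and loads the MCM helicase. IRF3 encodes the transcription factor that switches on type I interferon genes after viral nucleic acid is sensed in the cell. ONECUT2 encodes a CUT homeobox transcription factor of liver, gut and nervous tissue development. RNA and protein were not analysed here, so the depletion of UHRF1 or DNMT1 itself is not shown.

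The ORC4 gene (ENSG00000115947.14) lies on the minus strand of chromosome 2 of hg38, at positions 147930396 to 148021604. Its promoter window holds 8 CpGs, of which 6 have their nearest CpG 20 bp away or more and are called low-density here. MBD5, on the other strand, starts 593 bp inside ORC4, so the CpGs upstream of ORC4 lie within MBD5, mostly in an intron. The IRF3 gene (ENSG00000126456.16) lies on the minus strand of chromosome 19, at 49659569 to 49665875, with 41 promoter CpGs of which 8 are low-density. BCL2L12, also on the opposite strand, starts 733 bp inside IRF3, and the methylated part of the IRF3 promoter window falls on its exons. The ONECUT2 gene (ENSG00000119547.6) lies on the plus strand of chromosome 18, at 57435374 to 57491298, with 75 promoter CpGs, 11 of them low-density. Of these CpGs 62 are intergenic and 13 lie in untranslated exon sequence of ONECUT2.

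The following hg38 sequences (plus strand, 30 bases each) show the promoter CpGs with the largest mean loss over the 3 clones, among CpGs with 10 or more reads at Baseline and Knockdown in each clone, since a few such CpGs carried much of the loss. The capitals mark the CpG, and the number after the gene is its distance in bp from the 5′ end, negative upstream.
ORC4 -838, chr2:148022428-148022457: tctgttcccacataCGttcctgatacttat
ORC4 -510, chr2:148022100-148022129: gagtgggaaaatgtCGggatctggattgta
ORC4 -656, chr2:148022246-148022275: attttccattttttCGttttgtctgacttc
IRF3 -621, chr19:49666482-49666511: acctttccttggatCGaagagtctttttcc
IRF3 -884, chr19:49666745-49666774: ctgccttccttaggCGtggtgaggctgccg
IRF3 -845, chr19:49666706-49666735: aagagctggggctcCGggaagacacgctga
ONECUT2 -863, chr18:57434497-57434526: acttgggacaccagCGaccctcctcacctc
ONECUT2 -807, chr18:57434553-57434582: acttctttccaagtCGctgatgcagaaagc
ONECUT2 -839, chr18:57434521-57434550: cacctccacctcacCGgttctacactctcc

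The 3 CpGs of ORC4 stand 182, 119 and 146 bp from their nearest CpG, in the order shown. Those of IRF3 stand 20, 14 and 10 bp from theirs, the first in an untranslated exon and the other two in a coding exon of BCL2L12. Those of ONECUT2 stand 24, 32 and 24 bp from theirs. The ranking covered 4 CpGs of ORC4, 27 of IRF3 and 13 of ONECUT2, since the remaining ones were under 10 reads in at least 1 of the 6 libraries.

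The loss at the promoters was described first, because it is what the members were selected on. At Baseline the ORC4 promoter had an mC of 40.4% in Cl.3, 21.8% in Cl.6 and 20.3% in Cl.9, against 13.7% in R1 and 24.8% in R2. At Knockdown it was 1.68%, 2.5% and 0.671% in the clones, against 4.00% and 6.90% in the bulk populations. The change was -25.9 ± 11.1 points (SD, n = 3) in the clones and -13.8 ± 5.80 points (SD, n = 2) in the bulk populations, and at Baseline the groups overlapped. These levels rest on only 87 to 175 reads per library, and the 95% Wilson interval of Cl.3 at Baseline ran from 31.1% to 50.5%. All such intervals and limits cover counting error only. The intervals of a region take the CpGs of 1 read as independent, so they can be too narrow.

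The IRF3 promoter started at 10.8%, 11.9% and 14.5% in Cl.3, Cl.6 and Cl.9 and at 7.89% and 9.04% in R1 and R2. At Knockdown it was 1.36%, 0.549% and 0.356% in the clones, against 3.29% and 2.00% in the bulk populations. Here the clones were all above the bulk populations at Baseline, as at 18.7% of all promoters, and all below them at Knockdown, as at 0.574%. Both orders favour the choice of the gene, and nothing is read from them.

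The ONECUT2 promoter was the lowest of the 3 at Baseline. Its Baseline mC was 5.08%, 9.18% and 8.22% in the clones, against 1.85% and 3.62% in R1 and R2. At Knockdown the groups overlapped, at 1.2%, 1.57% and 0.855% in the clones, against 1.73% and 1.37% in the bulk populations. The larger change in the clones (-6.29 ± 2.09 points, n = 3, against -1.19 ± 1.5, n = 2) therefore came with a higher Baseline, 7.50 ± 2.14% against 2.74 ± 1.25%, while the Knockdown levels overlapped.

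On the scale of the fit, the log2 odds of methylation, the difference in change between shUHRF1 and shDNMT1 was -2.52 for ORC4, -2.51 for IRF3 and -1.93 for ONECUT2, where the median over all promoters was 0.67. Of the 18476 promoters, 0.0920% were called in this direction at an adjusted p of 0.05. The called promoter nearest that threshold was PRKAA1 at -3.0 (adjusted p = 0.0486, edgeR) and the nearest one outside it was APBB3 at -2.74 (adjusted p = 0.0514, edgeR), so the set has no gap at its border. The number called, 17, was 0 in edgeR without the population as a block. It was 5 over CpGs with 10 or more reads in every library and 1 with 500 bp upstream to 100 bp downstream. Without Cl.3, Cl.6 or Cl.9 it was 14, 8 and 42, and limma called 9.

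**Figure D1:**
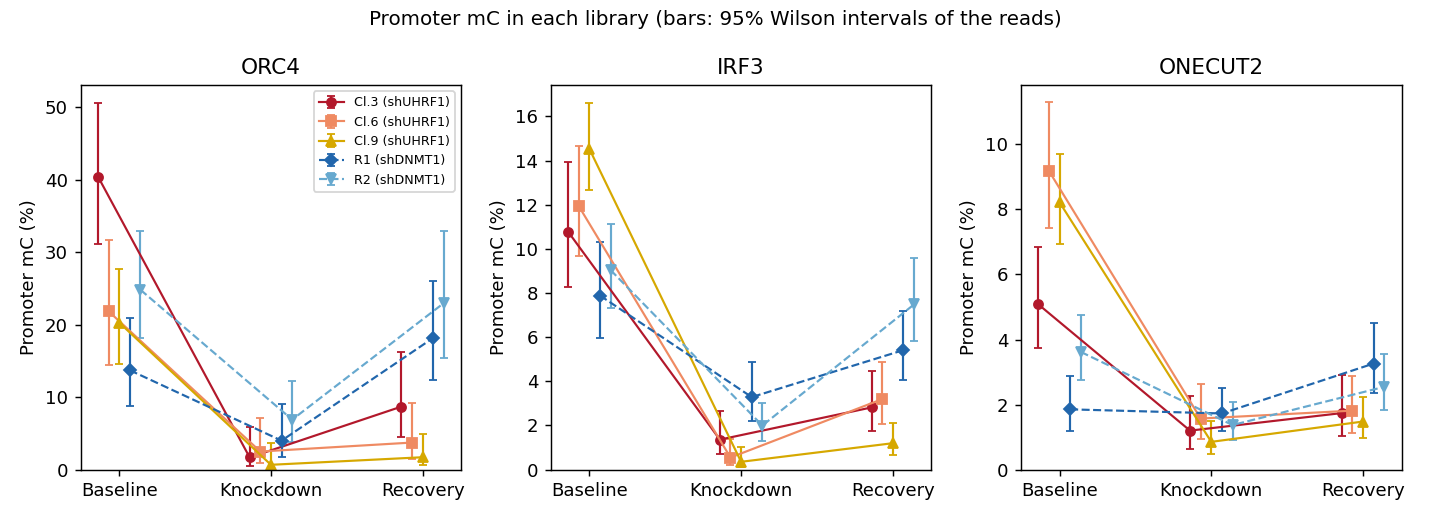
Promoter mC (y axis, percent of reads) of each gene at Baseline, Knockdown and Recovery (x axis). Each line is 1 population, solid for the shUHRF1 clones and dashed for the shDNMT1 bulk populations. Bars are 95% Wilson intervals that take the CpGs of 1 read as independent. At Recovery the 3 clones sit below both bulk populations at all 3 genes, at ORC4 for example between 1.71% and 8.70% against 18.2% and 23%.

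Whether a few CpGs at the upstream edge carry the loss was asked next. The loss was summed over the promoter CpGs with 10 or more reads at Baseline and Knockdown of a population. The outermost 250 bp of the promoter window held 42.8%, 95% and 50.7% of the summed ORC4 loss in Cl.3, Cl.6 and Cl.9, all of it from the single CpG at -838. For IRF3 the share was 60.5%, 38.1% and 43.5%, from 4 CpGs. For ONECUT2 it was 86.2%, 46.9% and 46.0%, from 5, 8 and 10 CpGs. The mean share was thus 62.8 ± 28.1% for ORC4, 47.4 ± 11.7% for IRF3 and 59.7 ± 22.9% for ONECUT2 (SD, n = 3 each), and the outermost 250 bp carried 38.1% to 95% of the loss in the 9 combinations of clone and gene. The share depended on the limits set: with an edge of 150 bp it was 0% for ORC4, which has no CpG there, 33.4% for IRF3 and 40.2% for ONECUT2. Over CpGs with 20 or more reads it was 0% for ORC4, from 1 clone, and 23.3% for IRF3 and 47.6% for ONECUT2, from 2 clones each.

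A wider edge, chosen after the data were seen, took in nearly all of it. The outer 500 bp of the promoter window held 97.8 ± 3.87% of the clones' loss at ORC4, 93.8 ± 10.2% at IRF3 and 88.8 ± 11.4% at ONECUT2. The inner 600 bp around the 5′ end held 2.23 ± 3.87%, 6.25 ± 10.2% and 11.2 ± 11.4%. At Baseline the clones' mC in this inner part was already low. It was 0% to 4.65% at ORC4, 0.294% to 2.28% at IRF3 and 0.262% to 5.12% at ONECUT2. The inner part thus had little to lose, and its small share was largely set by the Baseline. These shares were not counted over other promoters. In the clones 50% of the summed loss came from 1 or 2 CpGs of ORC4, from 2 to 4 of IRF3 and from 1 to 5 of ONECUT2. The CpGs counted were 4 to 7, 27 to 41 and 23 to 72. In Cl.9, which had the most reads, 50% of the loss came from 1 of 7, 3 of 41 and 5 of 72 CpGs. The CpGs were ordered by their own observed change, so counting error at few reads can make these numbers smaller. The bulk populations showed the same place of loss where they lost any: the outer 500 bp held 101 ± 1.57% at ORC4 and 104 ± 13.7% at IRF3 (n = 2), values above 100 meaning that the inner CpGs were slightly higher at Knockdown.

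**Figure D2:**
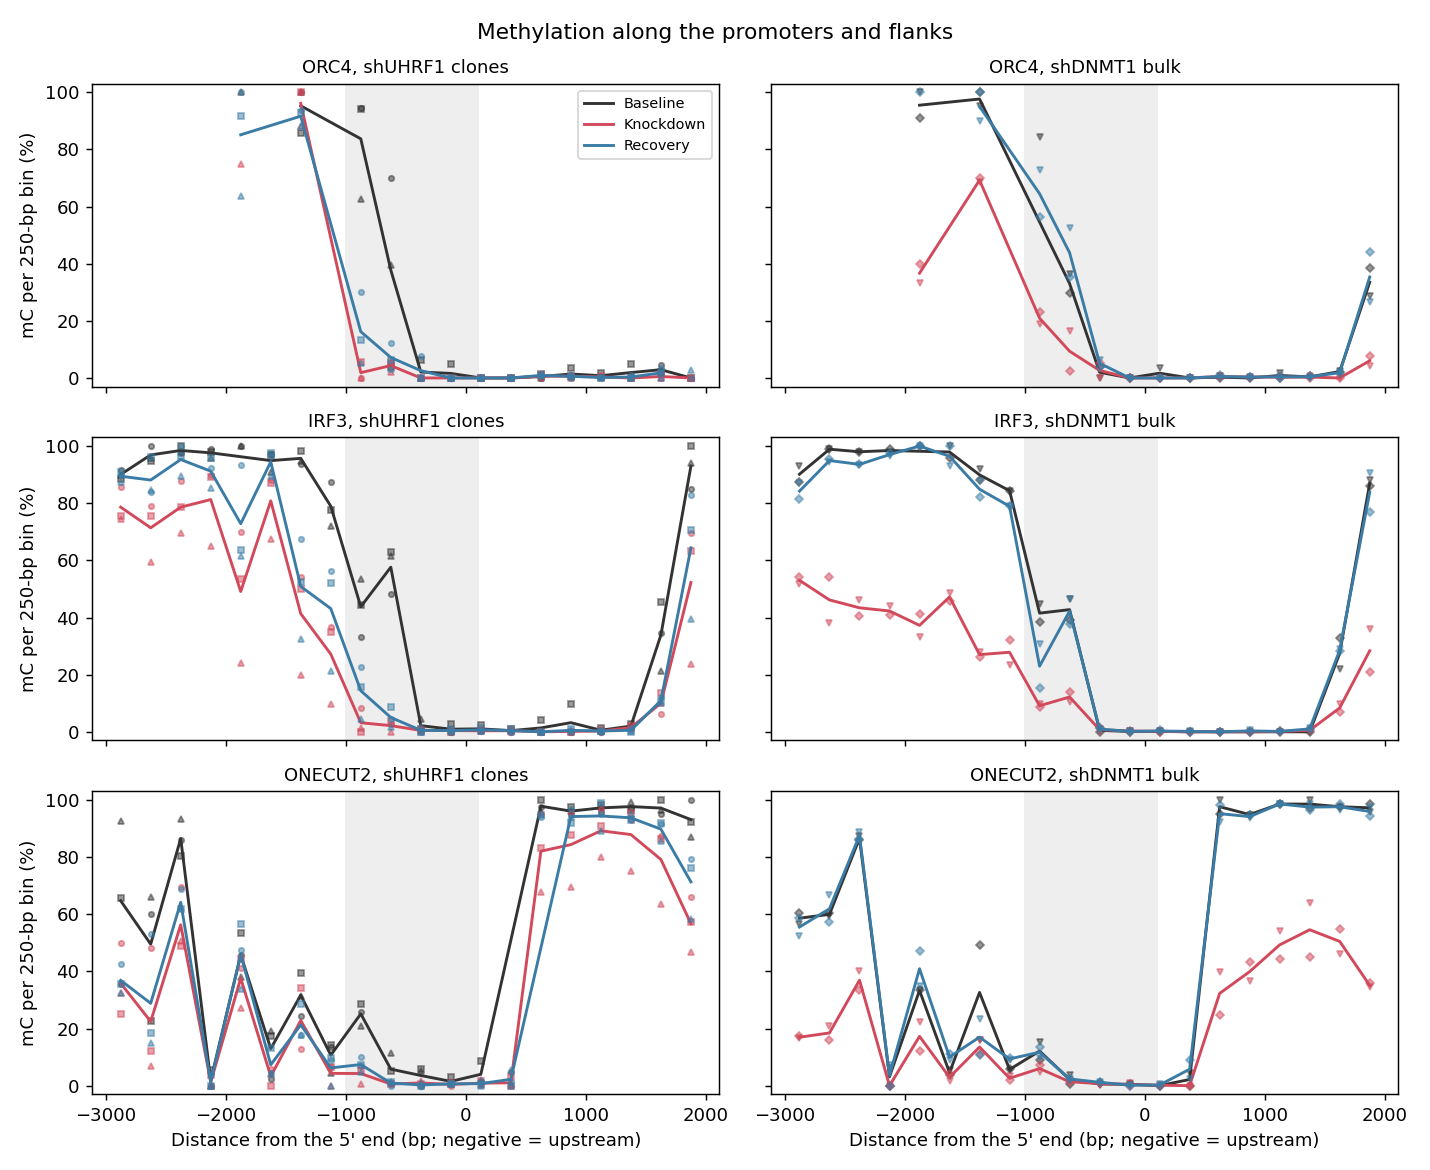
mC summed over the CpGs of each 250-bp bin (y axis, percent) against distance from the 5′ end (x axis, bp), with the shUHRF1 clones on the left and the shDNMT1 bulk populations on the right. Points are populations, shown where a bin had 10 or more reads, lines join the group means of bins that had them in every population of the group, and the grey band is the promoter window. The band is near 0% from about 500 bp upstream inwards at every stage, and in its outermost bin every clone was higher at Recovery (ORC4 5.26% to 30%, IRF3 4.55% to 22.8%, ONECUT2 4.89% to 9.91%) than at Knockdown (0% to 5.56%, 0% to 8.33% and 0.53% to 6.98%) and lower than at Baseline.

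The bins of 250 bp show where the shores lie. The ORC4 bin from -500 to -251 bp was between 0% and 7.69% in every library, and the 250-bp bin that begins at -1000 bp was 94.4%, 94.1% and 62.5% in the clones at Baseline. At IRF3 the bin that begins at -750 bp was 48.1%, 63.1% and 61.7% in the clones, against 39.0% and 46.5% in R1 and R2 at Baseline, and the next bin inwards was 4.53% or less in every library. At ONECUT2 the bin that begins at -1000 bp was 25.7%, 28.7% and 21.0% in the clones at Baseline against 9.03% and 15.2% in R1 and R2. So the shore of ONECUT2 differed between the clones and the bulk populations at Baseline, in cultures without doxycycline, with no overlap. At the ORC4 shore R2, at 84.2%, lay within the range of the clones. The Baseline is part of what the genes were chosen by, so nothing is read from this difference.

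The single CpGs are given next as a description. They were ranked by their loss in the clones, so a large fall there from Baseline to Knockdown was fixed by the ranking. At ORC4 -838, mC went from 94.4%, 94.1% and 62.5% in Cl.3, Cl.6 and Cl.9 to 0%, 5.56% and 0% at Knockdown, and was 30.0%, 13.3% and 5.26% at Recovery. In R1 and R2 the same CpG was at 71.4% and 84.2%, then 23.1% and 18.8%, then 56.3% and 72.7%. Each value rests on 7 to 19 reads, and R1 at Baseline had the fewest. A 0 among 10 reads, as in Cl.3 at Knockdown, still allows an mC of up to 30%, by a limit of 3 counts.

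At ORC4 -510 the clones were not alike. Cl.3 was at 100% at Baseline and Cl.9 at 58.1%, while Cl.6 was at 7.14% and had little to lose. At Knockdown the 3 clones were at 9.52%, 8.70% and 3.23%, and at Recovery at 33.3%, 0% (0 of 19 reads, which allows up to 15.8%) and 5.41%. R1 and R2 went from 43.8% and 53.8% to 4.76% and 25.9% and then to 47.6% and 91.7%.

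IRF3 -621 was methylated in every population at Baseline, at 87.5%, 95% and 94.1% in the clones, against 61.5% and 78.9% in R1 and R2. At Knockdown it was 9.09%, 13.3% and 0% (0 of 25 reads, which allows up to 12%) in the clones, against 22.7% and 16.0% in R1 and R2. At Recovery the clones were still at 8.00%, 13.0% and 6.06%, and R1 and R2 were at 61.5% and 80.0%. The groups did not overlap at Knockdown, where the ranking favours low values in the clones, or at Recovery. Their distance at Recovery was the wider one. How often the groups do not overlap was not counted over all single CpGs.

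IRF3 -884 was at 0% in all 3 clones both at Knockdown and at Recovery, from 50%, 58.3% and 72.5% at Baseline. These zeros rest on 10 to 26 reads, and the 0 of 12 reads in Cl.6 at Recovery allows up to 25%. R1 and R2 went from 44.4% and 52.0% to 10.5% and 8.33% and then to 23.1% and 35.0%, so the Recovery value of R1 lay under the limit for Cl.6. IRF3 -845 did not follow this split: at Recovery it was 37.5%, 31.6% and 6.90% in the clones, against 5.71% and 25.0% in the bulk populations, so the groups overlapped.

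At ONECUT2 each of the CpGs with the largest mean loss was high in 1 clone only. The CpG at -863 was at 54.5% in Cl.3 at Baseline and at 0% in Cl.6 and Cl.9, where 11 and 29 reads allow up to 27.3% and 10.3%. The CpG at -807 was at 46.5% in Cl.9 and at 4.55% and 5.26% in Cl.3 and Cl.6. The CpG at -839 was at 50% in Cl.3, 14.3% in Cl.6 and 2.78% in Cl.9. In R1 and R2 these CpGs ranged from 0% to 18.2% at Baseline. At Knockdown none of the 3 was above 15.4% in any library.

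**Figure D3:**
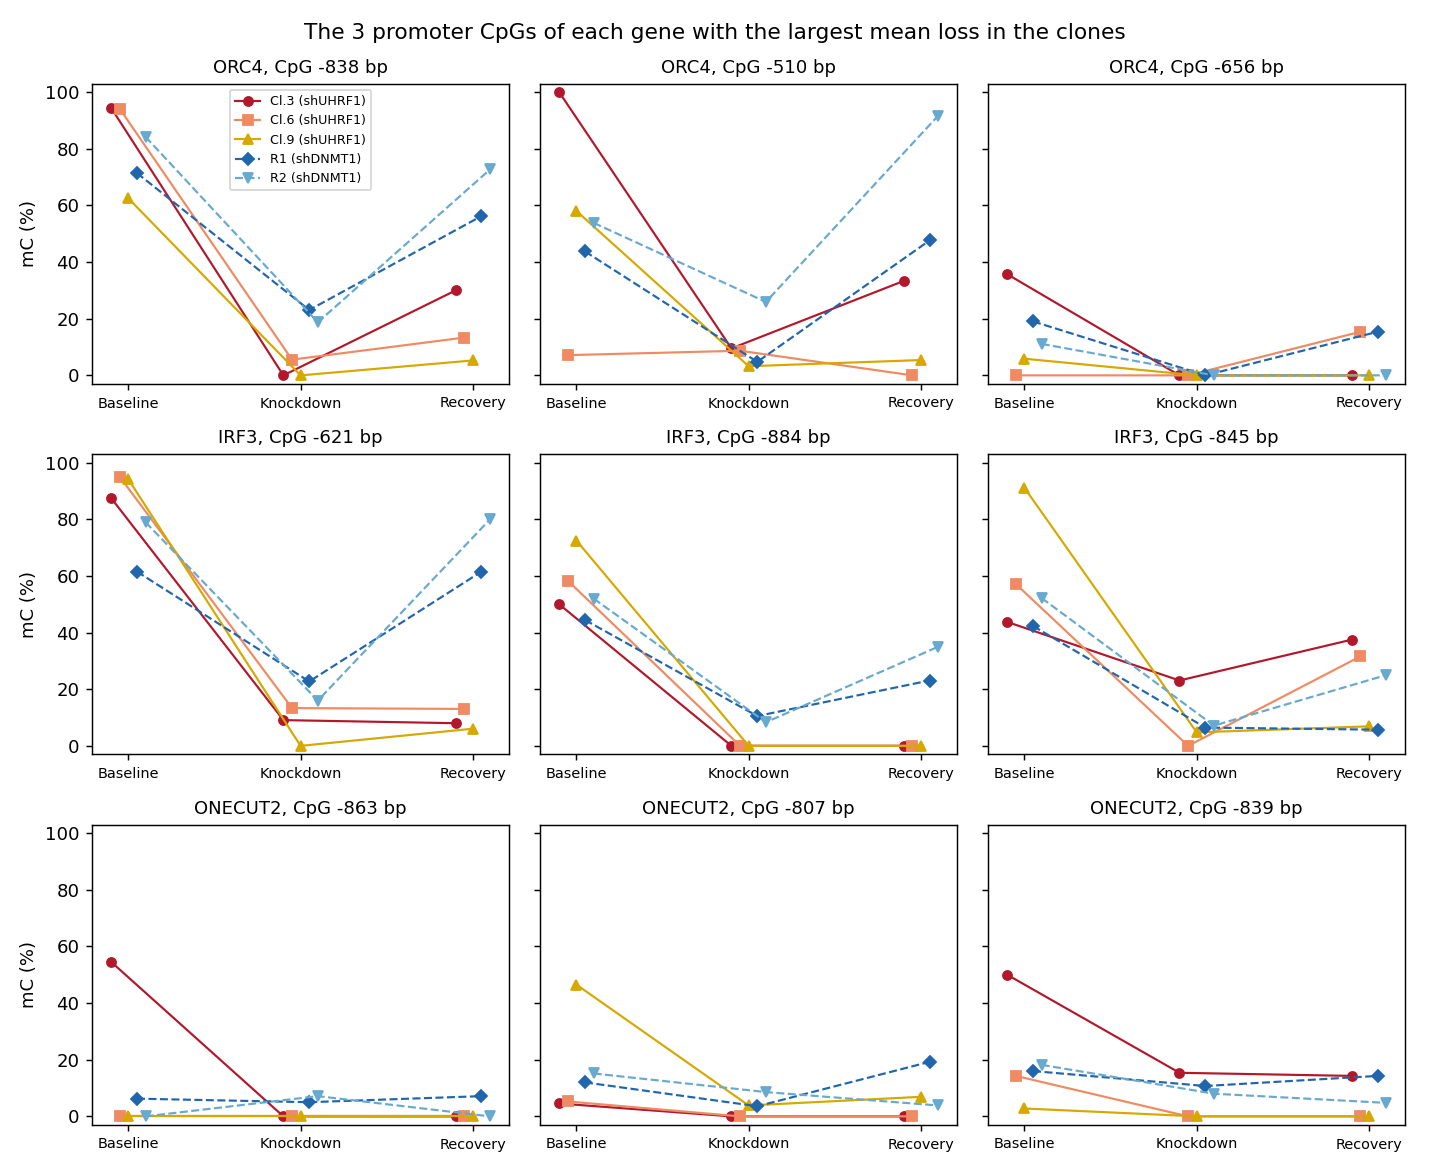
mC (y axis, percent) of the CpGs shown as sequences above, 3 per gene, at Baseline, Knockdown and Recovery (x axis). Each line is 1 population, solid for the shUHRF1 clones and dashed for the shDNMT1 bulk populations. IRF3 -621 ends at 61.5% and 80.0% in the bulk populations and between 6.06% and 13.0% in the clones, and each ONECUT2 CpG is high at Baseline in a single clone.

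Whether the loss returned was read from the Recovery libraries. The contrast that chose the members left them out, but they were in the same edgeR model, and promoter deviations at Knockdown and Recovery correlated at 0.39 to 0.62 within a clone, so the Recovery levels are not independent of the choice and are given with no test. At Recovery the ORC4 promoter was at 8.70%, 3.74% and 1.71% in Cl.3, Cl.6 and Cl.9 and at 18.2% and 23% in R1 and R2. The IRF3 promoter was at 2.82%, 3.19% and 1.2% in the clones, against 5.42% and 7.49% in R1 and R2. The ONECUT2 promoter was at 1.74%, 1.81% and 1.48% in the clones, against 3.26% and 2.55% in R1 and R2. At each of the 3 genes all clones were below both bulk populations, as they were at 43.2% of all promoters. At IRF3 and ONECUT2 the order of the groups was the reverse of that at Baseline, as at 5.23% of all promoters, but the Baseline order is part of what the genes were chosen by, and nothing is read from this share.

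The Baseline and Knockdown libraries had been used in choosing the members, and a high Baseline in the clones with a low one in the bulk populations favours that choice. The members' changes that involve those libraries are therefore given as a description, with no test. From Baseline to Recovery the log2 odds change in edgeR was -3.09 ± 0.44 (SE) for ORC4, -2.62 ± 0.36 for IRF3 and -2.25 ± 0.36 for ONECUT2 in the clones (n = 3). The median over all promoters was -1.04, and 65.0% of all promoters were called lower by edgeR's quasi-likelihood test. These 12003 promoters became 7899 without Cl.9 and 5474 without the population block. In the bulk populations the change was 0.16 ± 0.46 for ORC4, -0.44 ± 0.41 for IRF3 and 0.09 ± 0.43 for ONECUT2 (n = 2). There edgeR called 0% of promoters lower and none higher, while 599 had an unadjusted p under 0.05, and limma called 0 as well, with 647.

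The difference of shUHRF1 minus shDNMT1 in this change was -3.25 ± 0.64 for ORC4, -2.18 ± 0.55 for IRF3 and -2.33 ± 0.56 for ONECUT2, beside a median of -0.93 over all promoters. With the promoter taken as 2 kb upstream to 500 bp downstream, the ORC4 value was -1.26, and without Cl.9 the IRF3 value was -1.61. Of all promoters 17.3% were called in this direction in edgeR. Without the population as a block, without R1 and without R2 edgeR called 0 promoters, with 2304, 3749 and 3745 at an unadjusted p under 0.05.

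Recovery was also set against Knockdown, again as a description. The ORC4 promoter was higher by 3.10 ± 3.39 points (SD, n = 3) in the clones and by 15.1 ± 1.35 points (SD, n = 2) in the bulk populations, with no overlap. The IRF3 promoter was higher by 1.65 ± 0.92 points in the clones, where it had been lower by 11.7 points at Knockdown. R1 and R2 were higher by 3.81 ± 2.38 points on average, and the groups overlapped. The ONECUT2 promoter was higher by 0.47 ± 0.20 points in the clones, against 1.35 ± 0.25 points in R1 and R2, with no overlap. How often the groups do not overlap in this change was not counted over all promoters. Over all promoters edgeR called 11.6% higher in the clones and 85.8% in the bulk populations. The number called higher in the clones was 2135 in edgeR, and 0 without the block, with 1616 promoters at an unadjusted p under 0.05. Counts in the other fits are also over all promoters, not within these 2135. In edgeR 3 were called without Cl.6 and 563 without Cl.9, and limma called 41.

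As a share of the loss, counted over the CpGs with 10 or more reads in all 3 libraries of a population, 19.8%, 11.4% and 5.48% returned at ORC4 in Cl.3, Cl.6 and Cl.9. At IRF3 it was 18.3%, 23.2% and 5.94%, and at ONECUT2 1.02%, 20.5% and 8.60%. The clones' mean of 12.3% at ORC4 was 3.97% over CpGs with 20 or more reads, from 1 clone. That of 15.8% at IRF3 was 8.09% over such CpGs, again from 1 clone, and 36.0% with the promoter taken as 2 kb upstream to 500 bp downstream, and that of 10.0% at ONECUT2 was 5.03% over CpGs with 5 or more reads. In R1 and R2, 135% and 109% returned at ORC4. The share of R1 leaves out the CpG at -838, which had 7 reads at Baseline, so it covers other CpGs than those of the clones, and at that CpG R1 was at 71.4%, 23.1% and 56.3% over the stages. At IRF3 22.1% and 77.1% returned in R1 and R2, so the bulk populations differed from each other at IRF3 and R1 lay within the range of the clones. At ONECUT2 R1 had lost too little for a share to be read, with 1.48% at Baseline and 1.30% at Knockdown over these CpGs, and 53.3% returned in R2.

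Single CpGs were compared between Recovery and Baseline by Fisher's exact test, adjusted over all CpGs of promoters and flanks in a population. Such a test compares the reads of 2 libraries. In Cl.3, where 1.34% of CpGs were called lower, 1 of 4 tested promoter CpGs of ORC4, 1 of 28 of IRF3 and 0 of 23 of ONECUT2 were. In Cl.6, with 2.89%, it was 1 of 4, 2 of 39 and 0 of 31. In Cl.9, with 14.0%, it was 2 of 7, 7 of 41 and 5 of 65. In R1 and R2 0% of all CpGs were called, with 10463 and 13027 at an unadjusted p under 0.05. The members' counts share their Baseline reads with the choice of the genes, and nothing is read from them. Cl.9 had the most reads of the 3 clones, and the number of its calls cannot be set beside those of Cl.3 and Cl.6.

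The CpGs of the flanks were not used in choosing the members, although the same libraries and the same contrast were. The sign of the promoters in this contrast was fixed by the choice, so the flanks are set beside all flanks and not beside the promoters. The upstream flank of IRF3 was methylated in all populations at Baseline, at 94.8%, 92.7% and 91.3% in Cl.3, Cl.6 and Cl.9, against 92.1% and 94.2% in R1 and R2. At Knockdown it was 73.7%, 73.0% and 50.2% in the clones, against 42.4% and 40.0% in R1 and R2. At Recovery it was 83.5%, 78.0% and 68.0% in the clones, against 89.2% and 91.3% in R1 and R2. So this stretch, which begins where the IRF3 promoter window ends, was lower in the bulk populations than in the clones at Knockdown and higher at Recovery.

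The IRF3 upstream flank fell in both groups in edgeR. The clones fell by 2.82 on the log2 odds scale (SE 0.27, adjusted p = 1.2e-13) and the bulk populations fell by 4.28 (SE 0.33, adjusted p = 2.8e-17). Falls were called at 99.2% and 99.6% of all upstream flanks. Over all upstream flanks the median difference of shUHRF1 minus shDNMT1 was 1.07, and 45.8% were called higher. This number of 8686 was 13434 without Cl.9 and 3082 over CpGs with 10 or more reads in every library. It was 0 without the population block, with 4261 at an unadjusted p under 0.05. At IRF3 the difference was 1.46 ± 0.43 (adjusted p = 0.0078, edgeR). The edgeR call was lost without the population as a block (adjusted p = 0.21), without R1 (0.052), R2 (0.18) or Cl.6 (0.064), and over CpGs with 10 or more reads in every library (0.13).

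Within that flank the retained mC in the clones depended on place. From -2250 to -2001 bp, in a stretch of 13 CpGs, the clones were at 89.9%, 89.0% and 64.9% at Knockdown and R1 and R2 at 40.7% and 43.9%. From -1250 to -1001 bp, next to the promoter window, the clones were at 36.6%, 35.1% and 9.86% and R1 and R2 at 32.1% and 23.5%, so the groups overlapped. At Recovery this bin was 56.2%, 51.9% and 21.3% in the clones, against 78.9% and 78.9% in R1 and R2.

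The upstream flank of ORC4 holds 3 CpGs and was under the minimum of 5 for the test. Its mC at Baseline was 96.6%, 90.9% and 100% in the clones, against 95.7% and 96.8% in R1 and R2, and each value in the 15 libraries rests on 17 to 46 reads. At Knockdown it was 100%, 92.9% and 84.8% in the clones, against 60% and 54.8% in R1 and R2, and at Recovery 96.2%, 92.3% and 78.6% in the clones, against 100% and 94.1% in R1 and R2. These CpGs kept most of their mC in all 3 clones. With no minimum on CpGs, edgeR gave a fall of 4.17 in the bulk populations (SE 0.98, adjusted p = 8.8e-05) and no call in the clones (-1.35 ± 1.07, adjusted p = 0.21) or for the difference (2.82 ± 1.75, adjusted p = 0.17).

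The upstream flank of ONECUT2 was of intermediate mC, at 34.8%, 40.4% and 30.9% in the clones, against 35.9% and 29.7% in R1 and R2 at Baseline. At Knockdown it was 25.3%, 25.5% and 17.0% in the clones, against 10.2% and 16.4% in R1 and R2. In edgeR the clones fell by 0.93 (SE 0.25, adjusted p = 4.9e-04) and the bulk populations fell by 1.68 (SE 0.31, adjusted p = 1.3e-06), and the difference was not called (0.76 ± 0.39, adjusted p = 0.10). It was called without Cl.9 (0.85, adjusted p = 0.040, edgeR). Without R1 the difference was 0.18 and the bulk change -1.10, and without R2 they were 1.37 and -2.30.

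Downstream, the flanks of ORC4 and IRF3 are mostly unmethylated. The ORC4 downstream flank was at 2.81%, 5.64% and 3.43% in the clones at Baseline and 3.62%, 3.99% and 2.45% at Knockdown, and in R1 and R2 it went from 5.63% and 4.79% to 1.34% and 1.98%. In edgeR the bulk populations fell by 1.69 (SE 0.37, adjusted p = 8.4e-05) and the clones were not called (-0.25 ± 0.30, adjusted p = 0.40), with 94.2% of all downstream flanks called lower in the clones and 96.9% in the bulk populations. The difference of shUHRF1 minus shDNMT1 was 1.44 ± 0.47 (adjusted p = 0.037, edgeR), where 17.2% of downstream flanks were called in that direction and the median was 0.69. These 3291 downstream flanks became 38 without R2, 77 without R1, 0 without the population block (2057 at an unadjusted p under 0.05) and 7319 without Cl.9. The ORC4 call was lost without the population as a block (adjusted p = 0.46) and without R1, R2, Cl.3 or Cl.6 (0.28, 0.15, 0.11 and 0.061 in edgeR), and over CpGs with 10 or more reads in every library the value was -0.10. Over those CpGs the clones were called (-2.17, adjusted p = 0.017) and the bulk populations were not (-2.07, adjusted p = 0.13) in edgeR. The bin from 1750 to 1999 bp downstream holds 1 CpG. There R1 and R2 were at 38.5% and 28.6% at Baseline and at 7.69% and 4.35% at Knockdown. All 3 clones were at 0% at both stages, from 10 or more reads each. The part of this CpG in the flank's values was not tested.

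The ONECUT2 downstream flank passes from unmethylated to methylated DNA about 500 bp inside the gene, the bin from 500 to 749 bp being at 95.2% or more in every population at Baseline. The bin from 1000 to 1249 bp downstream was at 95.7%, 98.3% and 97.6% in the clones at Baseline, against 98.4% and 98.7% in R1 and R2. At Knockdown the clones were at 96.9%, 90.7% and 80.0% and R1 and R2 at 44.4% and 54.2%, and at Recovery the clones were at 95%, 99.0% and 89.2% and R1 and R2 at 98.6% and 98.6%. This body of 23 CpGs kept its mC best in Cl.3, and both bulk populations were back near their Baseline.

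Over the whole ONECUT2 downstream flank the clones fell by 1.36 in edgeR (SE 0.37, adjusted p = 1.0e-03) and the bulk populations fell by 3.15 (SE 0.44, adjusted p = 8.3e-08). The clones' call was lost without Cl.6 (-0.66, adjusted p = 0.089, edgeR), and without Cl.3 the value was -1.96. At Knockdown Cl.6 was at 63.0% over the flank, while its bins from 500 to 1749 bp were at 83.3% to 95.4%. Cl.3 was at 77.5% over the flank at Baseline and at 76.3% at Knockdown. The difference of shUHRF1 minus shDNMT1 was 1.79 ± 0.57 (adjusted p = 0.031, edgeR). The call was lost without the population as a block (adjusted p = 0.46), with limma (0.12), and in edgeR without R1, R2, Cl.3 or Cl.9 (0.16, 0.17, 0.18 and 0.057). At Baseline this flank was at 94.3% in Cl.6, from 404 reads, and 69.0% in Cl.9, from 1044 reads. Their bins from 500 to 1749 bp were close, at 96.6% to 100% and 95.8% to 99.3%. The bin from 250 to 499 bp was at 0.538% in Cl.9 and had under 10 reads in Cl.6. R2 went from 86.4% at Baseline to 66.0% at Recovery over the flank. The summed flank thus also depends on which CpGs were read, and the part of this in the edgeR values was not tested.

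The IRF3 downstream flank fell in both groups. The clones fell by 1.51 (SE 0.25, adjusted p = 1.9e-06) and the bulk populations fell by 1.43 (SE 0.30, adjusted p = 5.6e-05) in edgeR. The difference was -0.08 ± 0.39 (adjusted p = 0.89, edgeR). Over CpGs with 10 or more reads in every library both calls were lost, at -0.44 in the clones (adjusted p = 0.59) and 0.51 in the bulk populations (adjusted p = 0.73) in edgeR. Its bin from 1500 to 1749 bp downstream, between a bin at 2.74% or less and one at 85.1% or more at Baseline, was at 34.7%, 45.6% and 21.4% in the clones at Baseline, 6.35%, 13.7% and 10.0% at Knockdown and 12.2%, 10.6% and 10.0% at Recovery. In R1 and R2 it went from 32.9% and 22.1% to 6.87% and 9.85% and then to 28.2% and 28.9%. At Recovery the clones were thus all below both bulk populations in this bin. Upstream this held for the bin that begins at -750 bp. It did not hold for the one that begins at -1000 bp, where Cl.3 at 22.8% and Cl.6 at 15.8% lay above R1 at 15.3%. At 43.2% of all promoters the clones were all below both bulk populations at Recovery, and for bins this was not counted.

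The unmethylated regions (UMRs) that the authors called in each library cover all 3 5′ ends at every stage. At ORC4 the UMR reached 583 bp upstream of the 5′ end in Cl.3 and 747 bp in the other 4 populations at Baseline, and 1148 bp in all 5 at Knockdown. At Recovery it still reached 1148 bp in all 3 clones and was back at 747 bp in R1 and 583 bp in R2. The step between 747 and 1148 bp takes in the CpG at -838.

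At IRF3 the UMR reached 981, 602 and 602 bp upstream in Cl.3, Cl.6 and Cl.9 and 981 and 602 bp in R1 and R2 at Baseline. At Knockdown it reached 1289, 1184 and 1791 bp in the clones and further, 2473 and 2781 bp, in R1 and R2. At Recovery it was 1122, 1122 and 1507 bp in the clones, beyond every Baseline border, and 981 bp in both bulk populations. At ONECUT2 the border was 1994 bp upstream in all 5 populations at Baseline. It moved to 3597 and 4566 bp in Cl.6 and Cl.9 and to 4186 and 4906 bp in R1 and R2 at Knockdown, and did not move in Cl.3. At Recovery it was at 1994 bp again in all but Cl.9, where it was at 2336 bp. How often the borders of the clones and the bulk populations differ at Recovery was not counted over all UMRs.

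**Figure D4:**
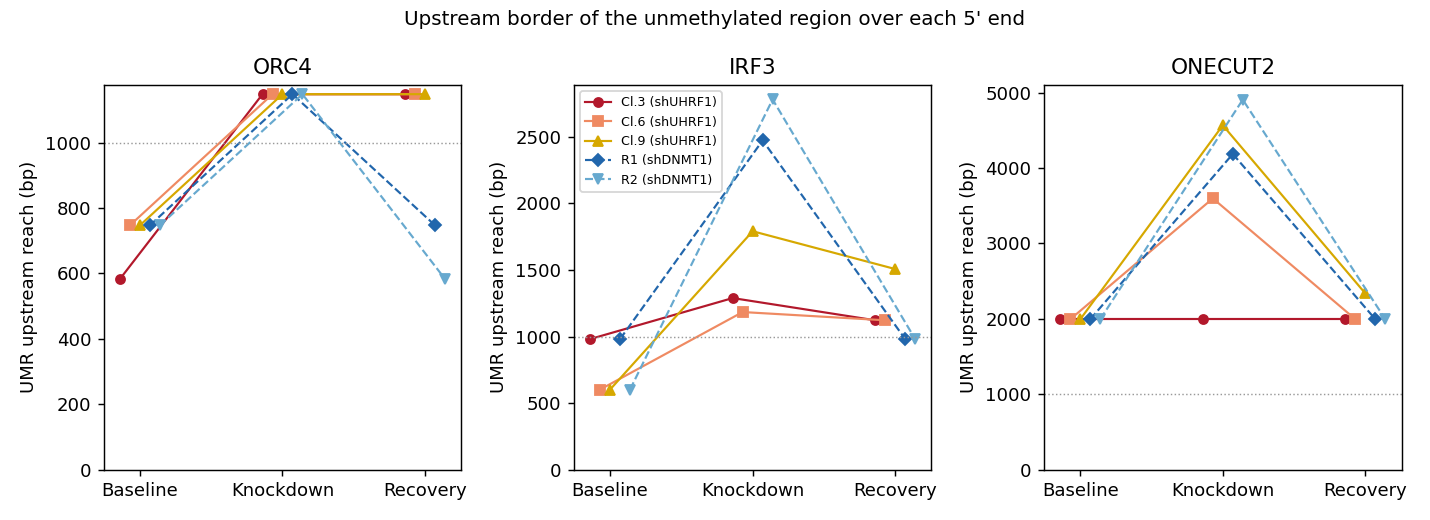
Distance in bp (y axis) that the UMR over each 5′ end reached upstream, by stage (x axis). Each line is 1 population, solid for the shUHRF1 clones and dashed for the shDNMT1 bulk populations, and the dotted line is the 1 kb border of the promoter window. At ORC4 the 3 clones stay at 1148 bp at Recovery while R1 and R2 are at 747 and 583 bp.

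The ORC4 result depended on the 5′ end that was used. The MANE Select transcript of ORC4, the one chosen as the gene's standard transcript, starts 867 bp further into the gene than the longest annotated one. The promoter window at that start holds 40 CpGs, with an mC of 0% to 2.61% in all 15 libraries. The edgeR change of the clones from Baseline to Recovery was -0.25 ± 0.71 there, and the difference between the shRNAs was -1.14 ± 1.41. For IRF3 the start differs by 18 bp and for ONECUT2 by 0 bp, and the difference between the shRNAs was -2.15 and -2.33.

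Genes of 3 related lists were set beside the members with the same edgeR fits. Of 13 other origin licensing genes, 8 promoters were lower at Recovery than at Baseline in the clones and none was higher, where 65.0% of all promoters were lower, a share that rests on Cl.9 and on the block as given above. The list's median log2 odds change was -1.11 against -1.04 over all promoters. They include ORC6 at -2.85, ORC1 at -2.31 and ORC5 at -1.34, all subunits of the same complex as ORC4, and MCM7 at -1.44, a subunit of the helicase. Of 7 other interferon regulatory factor genes tested, 3 were lower, among them IRF5 at -2.87 and IRF8 at -1.79, with a list median of -0.70. Of 6 other CUT homeobox genes, 4 were lower, among them CUX2 at -1.94 and ONECUT1 at -1.91, with a list median of -1.47. These counts lie near the share over all promoters or rest on few genes. In the bulk populations no promoter of the lists was called, as none was over all promoters.

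The difference between the shRNAs from Baseline to Recovery was called lower for ORC5 (-1.5) and MCM5 (-1.72), for IRF5 (-1.70) and IRF8 (-1.61), and for 3 of the CUT homeobox genes, among them CUX2 (-2.05) and SATB1 (-1.72), where 17.3% of all promoters were. With 0 promoters called without the population block, R1 or R2, these calls were lost there too. In the upstream flanks at Knockdown the difference was called higher for 6 of 13, 5 of 8 and 2 of 6 genes of the lists, and lower for none, beside 45.8% of all upstream flanks called higher. Without the population block edgeR called 0 upstream flanks, with 4261 at an unadjusted p under 0.05, so these calls were lost, and without R2 it called 662 in all. Across the 15 libraries the promoters whose mC was most like that of ORC4 included DMTF1 and PSMD5 (Pearson r = 0.95 each), among 16044 promoters with a range of 5 points or more. For IRF3 they were TMA16 (r = 0.97), RNF170 and PUS7L (r = 0.96 each), and for ONECUT2 CLIC1 and GLT8D2 (r = 0.97 each) and ENSG00000241489 (r = 0.96). These r are a description over libraries that share their stage and population.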

How the data were processed

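Per the study's methods, bisulfite reads were aligned with the Meth10X pipeline and methylation domains were called in each library with MethylSeekR. The submitters' processing notes name hg38 and bedtools 2.25.0, and how duplicates were treated is not given in the sources used here. The authors deposited counts of methylated reads and of all reads, not normalized and with both strands of a CpG summed, per library at 29456478 positions. The deposited domain files gave only domain borders. The authors' UMR borders were used as they stand.

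GENCODE release 44 on hg38 gave 5′ ends and exons, and every CpG of the 3 windows was checked to be CG in the hg38 sequence. Counts were summed per promoter and flank. Regions needed 5 CpGs, 50 reads in every library and both methylated and unmethylated reads. edgeR 4.0.16 (R 4.3.3) was fitted with its quasi-likelihood test on methylated and unmethylated counts, all 15 libraries in 1 fit, with the population as a block and Benjamini-Hochberg adjustment over all regions. limma 3.58.1 on log2 of methylated over unmethylated counts, each plus 1, was an alternative. Fisher's exact tests were run in Python 3.11.15 with code compiled by numba 0.67.0, which was compared with scipy 1.17.1 on random counts. Other alternatives changed the block, the filter, the window, the read minimum and the populations included.

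The clones are paired across stages by their labels: deviations from the group means correlated at 0.28 to 0.62 within a clone, and at -0.01 to 0.02 within a bulk population, where the replicate number is shared but the data show no pairing. Between libraries of 1 group the lowest mean chi-square with 1 degree of freedom over promoters was 3.40. The chi-square takes the CpGs of 1 read as independent, so such a value does not by itself show a difference beyond counting noise. At Recovery Cl.9 gave 19.7 and 16.6 against Cl.3 and Cl.6, which gave 4.70 between them, and at Baseline 9.13 and 15.4 beside 6.97. On simulated shUHRF1 Recovery against Baseline counts of 18476 promoters, edgeR recovered 76% of 100 promoters planted at a log2 odds of -2 and 22% of 100 at -1, with 4.85% false among its calls. limma recovered 62% and 2%, with 7.25% false. The simulated libraries shared the same mean and a fixed spread at each promoter apart from the planted changes, with no differences between populations. These shares are thus not the error rates of the calls reported here.

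The 3 members, the lists and the tests were chosen with earlier results of these data known. Named genes were the members, genes overlapping their windows, called genes of 3 family lists and the 3 promoters most correlated with each member. Some genes under this rule are not reported here. Beside zeros that a statement rests on, the limit that 3 counts of the reads give is printed. Every sample had a group in the labels.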

Additional observations from a re-analysis of the deposited data

Results flagged for a closer look

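Differences between shUHRF1 and shDNMT1 cells are given again here for the 3 promoters and for their flanks. At the promoters, from Baseline to Recovery, the log2 odds difference of shUHRF1 minus shDNMT1 was -3.25 for ORC4, -2.18 for IRF3 and -2.33 for ONECUT2, and 17.3% of all promoters were called in that direction. These values use the Baseline libraries by which the genes were chosen, so they are a description with no test. In the flanks, from Baseline to Knockdown, the difference was 1.46 for the upstream flank of IRF3, where 45.8% of all upstream flanks were called, and 1.44 for the downstream flank of ORC4 and 1.79 for that of ONECUT2, where 17.2% of all downstream flanks were. The downstream flank of IRF3 was at -0.08 and not called. The flank values share the libraries of the choice but not the CpGs. The summed downstream flank of ONECUT2 also depends on which CpGs were read, as given above. The 3 flank calls, made by edgeR's test of the difference, were lost without the population as a block and without either bulk population, R1 or R2. The ORC4 and ONECUT2 calls were also lost without Cl.3, those of ORC4 and IRF3 without Cl.6 and that of ONECUT2 without Cl.9 and in limma. Groups of 2 and 3 libraries were not checked for single outlying values at each gene.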

How the results depend on the processing

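Of 234 values of single members under an alternative, 187 kept their direction and their side of the threshold, 38 lost a call, 2 gained one and 7 changed sign. The count takes in the promoter changes from Baseline to Recovery, which are a description with no test. A value called in neither analysis counts as kept unless its sign changed, as for the bulk promoter changes. The count is therefore not a measure of support. The sign changes were at values not called in the analysis reported, except IRF3 and ORC4 in the downstream flank. With 1 promoter window or population set changed, the bulk Recovery change of ORC4 was -0.17 (2 kb upstream to 500 bp downstream) and -0.14 (without R1), that of IRF3 0.33 (500 bp upstream to 100 bp downstream) and that of ONECUT2 -0.52 (without R1). Over CpGs with 10 or more reads in every library it was -0.35 for ONECUT2, the bulk Knockdown change of the IRF3 downstream flank was 0.51, and the difference between the shRNAs at the ORC4 downstream flank was -0.10. Without R1 or R2 the bulk change ranged from -0.14 to 0.48 for ORC4 and from -0.52 to 0.83 for ONECUT2. The cause was not tested.

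Promoters called from Baseline to Recovery in the clones numbered 12005, and 7883 with 500 bp upstream to 100 bp downstream, 7961 over CpGs with 10 or more reads in every library, 5474 with no replicate block and 7912 to 12799 leaving out 1 population. The 7912 were without Cl.9. Those called in the difference between the shRNAs numbered 3200, and 5309 with 2 kb upstream to 500 bp downstream, 770 with 500 bp upstream to 100 bp downstream, 1478 with limma, 0 with no replicate block and 0 to 6009 leaving out 1 population: 0 without R1 or R2, 647 without Cl.9, 1972 without Cl.6 and 6009 without Cl.3. Upstream flanks called in the difference at Knockdown numbered 8700, then 3092 over CpGs with 10 or more reads, 0 with no replicate block and 662 (without R2) to 13449 (without Cl.9) leaving out 1 population. Downstream flanks numbered 3322, then 259, 0 and 38 (without R2) to 7379 (without Cl.9). The flanks' calls of a difference at the members needed both bulk populations and the pairing of libraries by population, which the data did not show for R1 and R2.

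With no replicate block the members' Recovery change in the clones was -3.05, -2.60 and -2.22 for ORC4, IRF3 and ONECUT2, and with 2 kb upstream to 500 bp downstream it was -1.43, -1.18 and -1.14. With 500 bp upstream to 100 bp downstream it was -1.56 for IRF3. With that narrower window ORC4 could not be fitted, nor over CpGs with 10 or more reads in every library. Single CpGs called at a minimum of 20 reads numbered 4651 in Cl.3 (12055 at 10 reads) and 15810 in Cl.6 (31121).

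The edge share of ORC4 was 0% at a minimum of 20 reads, from 1 clone, and 0% with an edge of 150 bp, which has no CpG, and 97.8% with 500 bp. That of IRF3 was 23.3%, 33.4% and 93.8%, and that of ONECUT2 was 88.8% with 500 bp. Leaving out 1 clone gave 46.8% to 72.8%, 40.8% to 52.0% and 46.5% to 66.6%. The share of the loss that returned in the clones was 3.97% at ORC4 with 20 reads and 36.0% at IRF3 with 2 kb upstream to 500 bp downstream, and leaving out 1 clone gave 8.46% to 15.6%, 12.1% to 20.7% and 4.81% to 14.5% for ORC4, IRF3 and ONECUT2. In the bulk populations the ORC4 return was 140.4% with the longer window and 109% to 135% from either population alone. The depth over the ORC4 promoter was 87 to 175 reads, summed over its CpGs.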
